A study of Homo sapiens with 6 samples.

Results

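The MYC-MAX-MXD network was followed as 10 genes: MYCN and MYC, their partner MAX, the repressors MXI1, MXD1, MXD3, MXD4, MNT and MGA, and MLX, the partner of a parallel branch. The members were taken by gene name, and all 10 were among the 35130 names of each library; 9 of them averaged 1 TPM or more and were among the 12576 genes tested, while MYC was below that level. RNA had been sequenced from SK-N-BE(2) cells, a neuroblastoma line derived from bone marrow that carries many extra copies of MYCN. The NEN group (3 libraries) received 1 µM NEN for 24 h, and the DMSO group (3 libraries) received the solvent for 24 h. The labels give NEN by its abbreviation, which in neuroblastoma work stands for niclosamide ethanolamine, a mitochondrial uncoupler; that reading is background here. The libraries come from 1 cell line and are called biological replicates in the labels with no more detail, so the p-values measure the spread between these libraries.

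MYC proteins bind DNA as pairs with MAX, mostly at the E-box CACGTG, and activate growth genes. MXD proteins, MXI1 and MNT pair with the same MAX, bind the same sites and recruit the SIN3-HDAC corepressor, so that the members compete for MAX and for sites. MXD genes are known for rising as cells leave the cell cycle or differentiate, and amplified MYCN marks aggressive neuroblastoma.

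Values were in TPM, a measure of transcript abundance scaled by transcript length and library total, which keeps no sequencing depth. A TPM value is a share of the library, so a change in RNA per cell and a change relative to other transcripts cannot be told apart. The 10 neuroblastoma markers were listed at 7.04 to 3150 TPM, and of 14 blood, stromal, endothelial and epithelial markers 9 had means under 1 TPM, with CD3E and HBB at 0 in all libraries. The summed level of those 14 markers was 7.17 to 17.9 TPM in NEN libraries and 10.7 to 13.6 TPM in DMSO libraries. Each fold change is the NEN mean less the DMSO mean of log2(TPM + 1), a scale that shrinks differences between low values, and is given ± SE with p-values from limma adjusted by Benjamini-Hochberg over all genes tested. Of those genes 30.0% passed an adjusted p of 0.05, with 13.5% higher and 16.5% lower in NEN.

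Of the 9 members tested, 5 rose in NEN-treated cells, 1 fell and 3 did not pass the test. Those that rose were MXI1, MXD4, MXD1 and MNT, which encode repressors, and MYCN itself, and the one that fell was MLX. The 3 NEN and 3 DMSO libraries did not overlap for 7 of the 9, against 46.8% of all genes tested; NEN was above DMSO for 5 of them (21.8% of all genes) and below for 2 (25.0% of all genes). The median fold change of the 9 was 0.33, beside -0.02 for all genes tested. Fewer members were called higher when 1 library was dropped. The count was 4 without NEN replicate 3 or DMSO replicate 2, and 3 without DMSO replicate 1 or 3 or NEN replicate 2. It was 2 without NEN replicate 1. Calls among all genes tested fell too, as fewer samples were left. Genes called higher went from 1699 to between 1063 (without NEN replicate 1) and 1554, and genes called lower from 2074 to between 1402 and 1914. The call of MLX was lost whichever of the 6 libraries was dropped, and without NEN replicate 1 the member called lower was MGA.

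**Figure D1:**
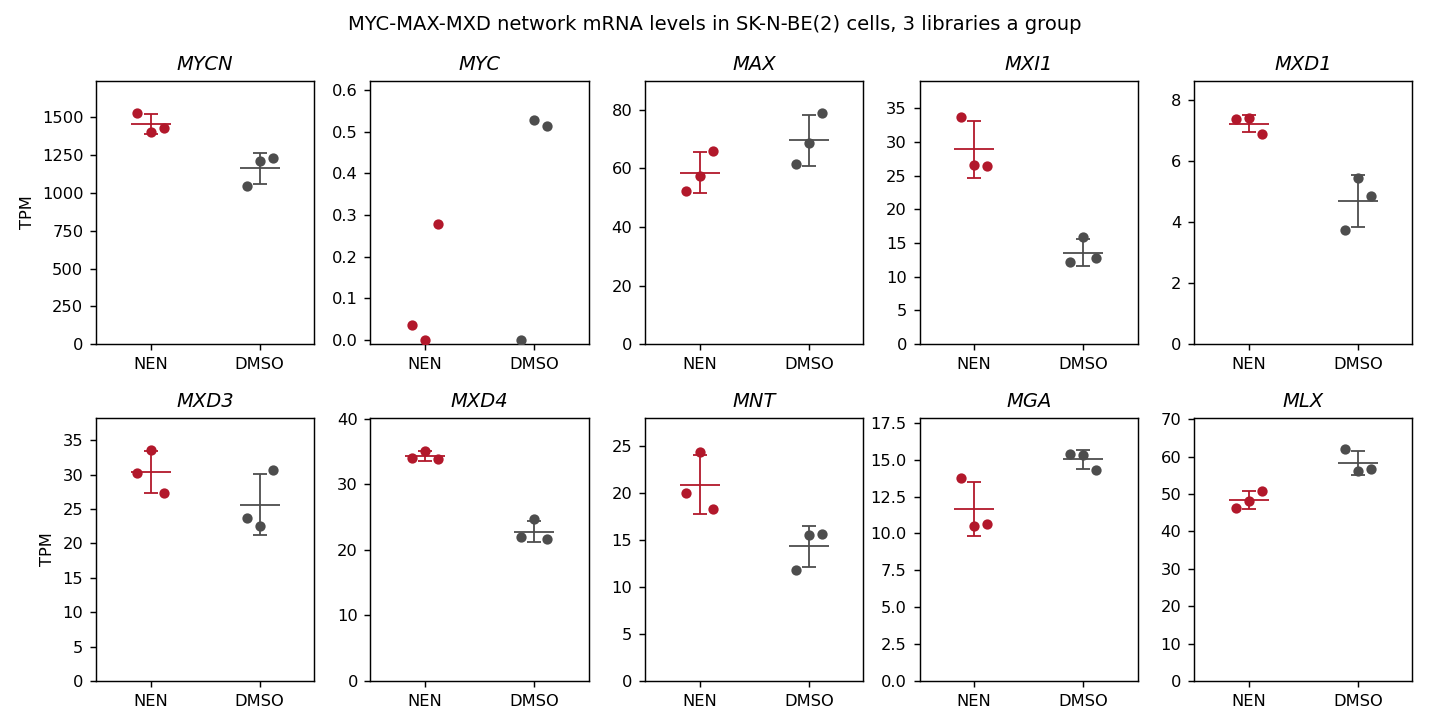
Level of each network member in TPM (vertical axes from 0, a scale of its own for each gene) in the 3 NEN libraries and the 3 DMSO libraries, replicates 1 to 3 from left to right. Points are libraries and bars the mean ± SD, left out for MYC, which was listed at 0 in 1 library of each group. All NEN points of MYCN, MXI1, MXD1, MXD4 and MNT lie above all DMSO points, and those of MGA and MLX lie below.

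MYCN, the amplified activator of this line, was listed at 1530, 1405 and 1431 TPM in NEN replicates 1 to 3, against 1044, 1215 and 1230 TPM in DMSO replicates 1 to 3. The lowest NEN library lay above the highest DMSO library, and NEN replicate 1 and DMSO replicate 1 were the extremes. By mean level MYCN ranked 102 among the 12576 tested genes in NEN and 118 in DMSO. The rise was 0.33 ± 0.08 (limma adjusted p = 0.0169), a ratio of means of 1.25. The call was lost without NEN replicate 1 (0.29, limma adjusted p = 0.0632) and with limma's plain settings (0.33, limma adjusted p = 0.0503).

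MYC, the paralogue that MYCN replaces in amplified neuroblastoma, was listed at less than 1 TPM in each library. It had 0.036, 0 and 0.28 TPM in the NEN libraries and 0, 0.53 and 0.51 TPM in the DMSO libraries, and the groups overlapped. Without the filter on low genes, limma gave -0.27 ± 0.20 (adjusted p = 0.493). MYCL, the remaining family member, which lies outside the list of 10, had 2.69, 1.87 and 1.74 TPM in NEN libraries and 0.35, 0.45 and 0.81 TPM in DMSO libraries. Every NEN library was above every DMSO library, though MYCL stayed far under MYCN. Its rise of 1.01 ± 0.25 (limma adjusted p = 0.0221) was not called when DMSO replicate 2 (0.97) or either of NEN replicates 1 (0.88) and 2 (1.06) was dropped. The size of the MYCL value depended on the pseudocount, being 1.82 with 0.1 and 0.36 with 5, and it was called with both. With means of 0.54 TPM in DMSO and 2.10 TPM in NEN, MYCL passed the filter of 1 TPM only through the NEN libraries. Its p-value thus belongs to a gene let into the test by the group in which it was high. MYCL was also called with no filter (1.01, limma adjusted p = 0.0255) and was not tested with a minimum of 5 TPM.

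MAX, the obligate partner of all the proteins above, had 52.1, 57.2 and 65.9 TPM in NEN libraries and 61.4, 68.5 and 78.7 TPM in DMSO libraries. The groups overlapped, and both spread widely. In both groups the values rose from replicate 1 to replicate 3. Its fold change was -0.25 ± 0.12 (limma adjusted p = 0.155), and -0.15 without DMSO replicate 3 (limma adjusted p = 0.371). With a replicate block MAX was called lower (-0.25 ± 0.06, limma adjusted p = 0.0453). Same-numbered libraries did not deviate together over all genes tested, so the numbers were not taken as pairs.

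The repressor MXI1, also called MXD2, had the largest fold change of the 9 members. It was listed at 33.7, 26.5 and 26.4 TPM in NEN libraries and at 12.1, 15.9 and 12.8 TPM in DMSO libraries. NEN replicate 1 was the highest, and the lowest NEN library was well above the highest DMSO library. The rise was 1.03 ± 0.14 (limma adjusted p = 0.00237), a ratio of means of 2.13, and 234 of the 12576 tested genes had a larger one. Over the 15 alternative settings the MXI1 fold change lay between 0.86 and 1.14, and it was called in each.

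MXD4, a family member of differentiating and resting cells, had 34.0, 35.1 and 33.9 TPM in NEN libraries and 21.95, 24.7 and 21.7 TPM in DMSO libraries. The NEN libraries were nearly equal and all above the DMSO libraries. MXD4 rose by 0.57 ± 0.08 (limma adjusted p = 0.00276), a ratio of means of 1.51. The call was kept in each of the 15 alternative settings, but removing the dependence of the values on transcript length and GC content within libraries brought the value to 0.35 (limma adjusted p = 0.0136).

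MXD1, the founding MXD gene, was the least abundant repressor. It had 7.40, 7.41 and 6.91 TPM in NEN libraries and 3.77, 5.47 and 4.87 TPM in DMSO libraries, and the groups did not overlap. The rise was 0.54 ± 0.15 (limma adjusted p = 0.0320). It was not called without DMSO replicate 1 (0.42), DMSO replicate 3 (0.57), NEN replicate 1 (0.53), NEN replicate 2 (0.53) or NEN replicate 3 (0.57), or with no filter on low genes (0.54, limma adjusted p = 0.0606). MXD1 with a pseudocount of 5 had a fold change of 0.34 and was called.

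MNT, a repressor that is made in cycling and resting cells alike, had 20.0, 24.4 and 18.3 TPM in NEN libraries and 11.8, 15.5 and 15.7 TPM in DMSO libraries. The groups did not overlap, with DMSO replicate 1 the lowest. MNT rose by 0.51 ± 0.15 (limma adjusted p = 0.0374). The call was lost without DMSO replicate 1 (0.39), DMSO replicate 2 (0.57), DMSO replicate 3 (0.58), NEN replicate 1 (0.54) or NEN replicate 2 (0.40). It was also lost with no filter (0.51, limma adjusted p = 0.0795), plain limma settings (0.51, limma adjusted p = 0.0541) and length and GC correction (0.37, limma adjusted p = 0.0835).

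MXD3, the family member known for expression in dividing progenitors, was the MXD gene that did not pass. It had 30.2, 33.5 and 27.4 TPM in NEN libraries and 23.7, 22.5 and 30.7 TPM in DMSO libraries. DMSO replicate 3 lay within the NEN range. Its fold change was 0.24 ± 0.13 (limma adjusted p = 0.211), and -0.02 with length and GC correction (limma adjusted p = 0.898). It was 0.16 without DMSO replicate 2 (limma adjusted p = 0.465) and 0.38 without DMSO replicate 3 (limma adjusted p = 0.0571). Whether MXD3 responded less than the other repressors was not tested.

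MGA, a very large protein that pairs with MAX and belongs to the Polycomb complex PRC1.6, had 13.8, 10.5 and 10.7 TPM in NEN libraries and 15.4, 15.3 and 14.3 TPM in DMSO libraries. All NEN libraries were below all DMSO libraries, NEN replicate 1 being nearest to them. The fold change was -0.35 ± 0.13 (limma adjusted p = 0.0743), and -0.47 (limma adjusted p = 0.0306) without NEN replicate 1.

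MLX pairs with MLXIP (MondoA) and MLXIPL (ChREBP), which sense glucose metabolites, and also with MXD1, MXD4 and MNT. It had 46.2, 48.2 and 50.9 TPM in NEN libraries and 62.1, 56.1 and 56.9 TPM in DMSO libraries, with no overlap. MLX fell by 0.26 ± 0.07 on the log2 scale (limma adjusted p = 0.0314). Without 1 library the value lay between -0.30 (without NEN replicate 3) and -0.22 (without DMSO replicate 1), with limma adjusted p between 0.0510 and 0.0967, so that the call rested on all 6 libraries. It was also lost with no filter (-0.26), plain limma settings (-0.26), median-ratio scaling (-0.24) and quantile normalization (-0.20).

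The partner MLXIP moved the other way. It had 24.6, 22.7 and 21.9 TPM in NEN libraries and 16.0, 18.4 and 18.6 TPM in DMSO libraries, all NEN libraries being higher. The rise of 0.37 ± 0.10 (limma adjusted p = 0.0273) was not called without DMSO replicate 1 (0.30), DMSO replicate 2 (0.40), NEN replicate 1 (0.32), NEN replicate 2 (0.38) or NEN replicate 3 (0.40), or with no filter (0.37). MLXIPL was under the filter at 0.59, 0.038 and 0.30 TPM in NEN libraries and 0, 0.12 and 0.36 TPM in DMSO libraries.

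**Figure D2:**
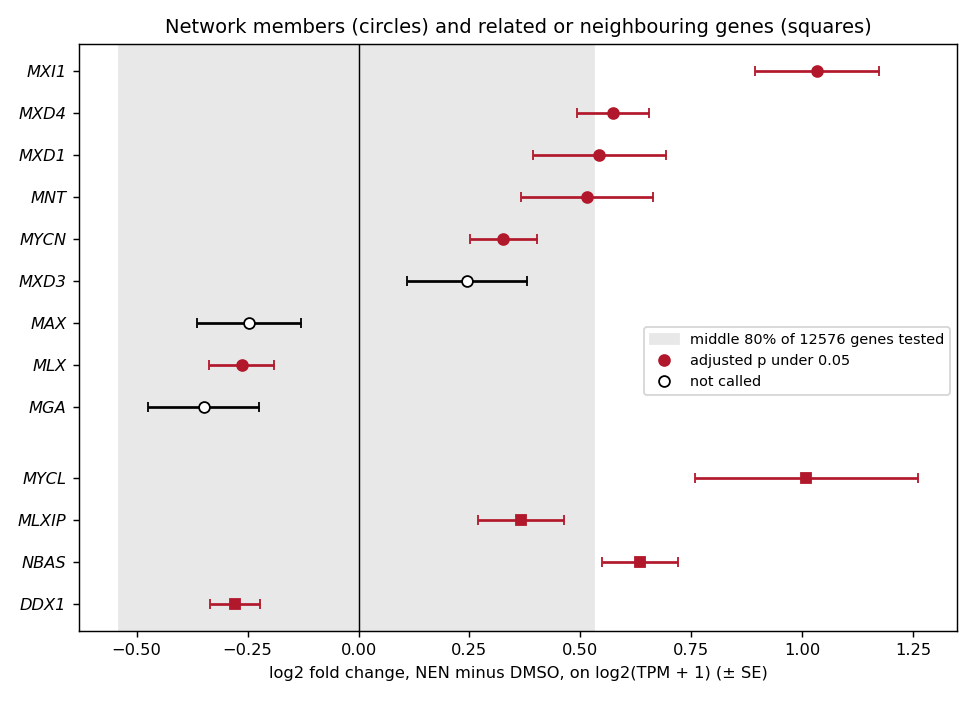
Log2 fold change of the 9 tested members (circles) and of MYCL, MLXIP, NBAS and DDX1 (squares), NEN minus DMSO of log2(TPM + 1), with SE as bars; filled symbols have an adjusted p under 0.05 and the grey band holds the middle 80% of the 12576 genes tested. MXI1 (1.03), MXD4 (0.57) and MXD1 (0.54) lie above the band, which ends at 0.53, and the other members lie within it.

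The network binds the E-box, so the 250 bases before the annotated start of each of the 9 tested members were searched for CACGTG, a palindrome, and for 4 other motifs on both strands. These were the E2F sites TTTGGCGC and TTTCCCGC, the cAMP response element TGACGTCA and the C/EBP-ATF composite site TGATGNAA. The windows came from RefSeq on GRCh38.p14, which gives several starts for some genes and 14 windows for the 9 members, and their build differs from that named for the deposited values. The E-box stood in 1 window each of MXD4, MNT and MLX, which is 3 of 14 windows, beside 6.34% of all 35116 RefSeq windows of this length. TTTGGCGC stood in the MYCN window and in 1 of 3 MGA windows, beside 0.550% of all windows. The other 3 motifs, present in 1.39% (TTTCCCGC), 1.65% (TGACGTCA) and 3.14% (TGATGNAA) of all windows, were not in the members' windows. The windows of MXI1 and MXD1, which rose with MXD4 and MNT, held none of the 5 motifs. The background takes all RefSeq windows and was not limited to genes tested here. The members' windows and the background are thus unlike sets, and a difference between them was not tested. A match describes letters and shows no binding.

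The 4 windows below are shown because they hold the E-box or, for MYCN, the E2F match, written 5′ to 3′ on the gene's strand with the match in capitals. They are chr4:2262110-2262359 on the minus strand for MXD4, chr17:2401061-2401310 on the minus strand for MNT, chr17:42566850-42567099 on the plus strand for MLX and chr2:15940300-15940549 on the plus strand for MYCN. Each lies just before the first exon of its gene. The E-box began 238 bases before the start in MXD4, 193 in MNT and 50 in MLX, and the E2F match 176 bases before it in MYCN.
MXD4: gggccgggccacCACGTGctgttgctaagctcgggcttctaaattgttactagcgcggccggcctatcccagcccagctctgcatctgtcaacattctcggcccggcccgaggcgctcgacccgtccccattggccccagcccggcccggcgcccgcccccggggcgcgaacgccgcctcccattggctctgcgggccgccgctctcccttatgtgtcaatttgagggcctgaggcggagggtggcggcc
MNT: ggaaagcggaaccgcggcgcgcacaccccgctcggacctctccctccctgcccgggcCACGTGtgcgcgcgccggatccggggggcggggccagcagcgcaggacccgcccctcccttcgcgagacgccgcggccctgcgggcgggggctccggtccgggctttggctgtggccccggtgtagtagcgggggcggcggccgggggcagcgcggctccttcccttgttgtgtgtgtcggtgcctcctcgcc
MLX: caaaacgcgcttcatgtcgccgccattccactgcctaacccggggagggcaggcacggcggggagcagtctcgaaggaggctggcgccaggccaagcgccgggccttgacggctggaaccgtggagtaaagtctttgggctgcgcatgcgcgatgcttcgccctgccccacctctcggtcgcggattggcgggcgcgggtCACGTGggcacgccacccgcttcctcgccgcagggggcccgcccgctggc
MYCN: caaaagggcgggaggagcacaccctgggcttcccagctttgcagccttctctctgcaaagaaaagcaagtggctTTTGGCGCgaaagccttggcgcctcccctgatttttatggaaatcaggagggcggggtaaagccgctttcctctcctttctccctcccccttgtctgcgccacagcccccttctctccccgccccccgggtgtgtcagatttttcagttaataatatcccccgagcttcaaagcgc

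As TPM is per transcript length, levels are set side by side across genes here. They were not corrected for GC content, which ran from 42.9% (MXD1 and MGA) to 67.3% (MXD3) in the members' transcripts. Close ranks and ratios between genes therefore carry that limit. In NEN cells the order of mean TPM was MYCN, MAX, MLX, MXD4, MXD3, MXI1, MNT, MGA, MXD1 and MYC, and among neighbours in that order the ranges of MXD3 and MXI1 overlapped. In DMSO cells it was MYCN, MAX, MLX, MXD3, MXD4, MGA, MNT, MXI1, MXD1 and MYC, with overlaps of MAX with MLX, MXD3 with MXD4, MGA with MNT and MNT with MXI1. MXI1 was thus listed at 28.9 ± 4.21 TPM in NEN cells, above MNT and MGA, and at 13.6 ± 2.00 TPM in DMSO cells, beside them (SD, n = 3 each).

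The 5 repressors MXI1, MXD1, MXD3, MXD4 and MNT, which compete with MYCN for MAX, together had 125.3, 127.0 and 112.8 TPM in NEN libraries, against 73.4, 84.0 and 85.7 TPM in DMSO libraries. Every NEN sum was above every DMSO sum, and the ratio of means was 1.5, a description with no test. MGA, the other repressor listed, also pairs with MAX but was left out of the sum and of the shares formed from it. Its fold change was -0.35, which did not pass the test, with all NEN libraries below all DMSO libraries. Adding MGA would therefore make the rise of the sum and of its share of MYCN smaller. The size of that effect was not computed. Relative to MYCN in the same library, the sum was 8.19%, 9.04% and 7.88% in NEN libraries and 7.03%, 6.91% and 6.97% in DMSO libraries. The mean share was 8.37 ± 0.60% in NEN and 6.97 ± 0.06% in DMSO (SD, n = 3 each), so MYCN mRNA was more than 10 times as abundant as the repressor mRNAs in every library. Their difference of 1.40 percentage points lay between 1.06 and 1.65 when 1 library was left out, the lowest without NEN replicate 2 and the highest without NEN replicate 3. A scaling of whole libraries leaves this share unchanged, since it is formed within a library. The correction for transcript length and GC content was not applied to the sum or the share. On single genes it lowered the fold changes of MXD3 (0.24 to -0.02), MXD4 (0.57 to 0.35) and MNT (0.51 to 0.37). Those of MXI1 (1.03 to 1.11) and MXD1 (0.54 to 0.63) went up, and MYCN went from 0.33 to 0.34. How far the share depends on that correction was not tested.

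MYCN mRNA stood at 29.4, 24.5 and 21.7 times the MAX level in NEN libraries and at 17.0, 17.8 and 15.6 times in DMSO libraries. The repressor sum stood at 2.40, 2.22 and 1.71 times the MAX level in NEN libraries and at 1.20, 1.23 and 1.09 times in DMSO libraries. In neither ratio did the groups overlap. Within the repressor sum, MXI1 made up 23.7 ± 3.03% in NEN and 16.8 ± 2.01% in DMSO, and MXD3 24.9 ± 1.29% in NEN and 31.6 ± 4.57% in DMSO (SD, n = 3 each).

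**Figure D3:**
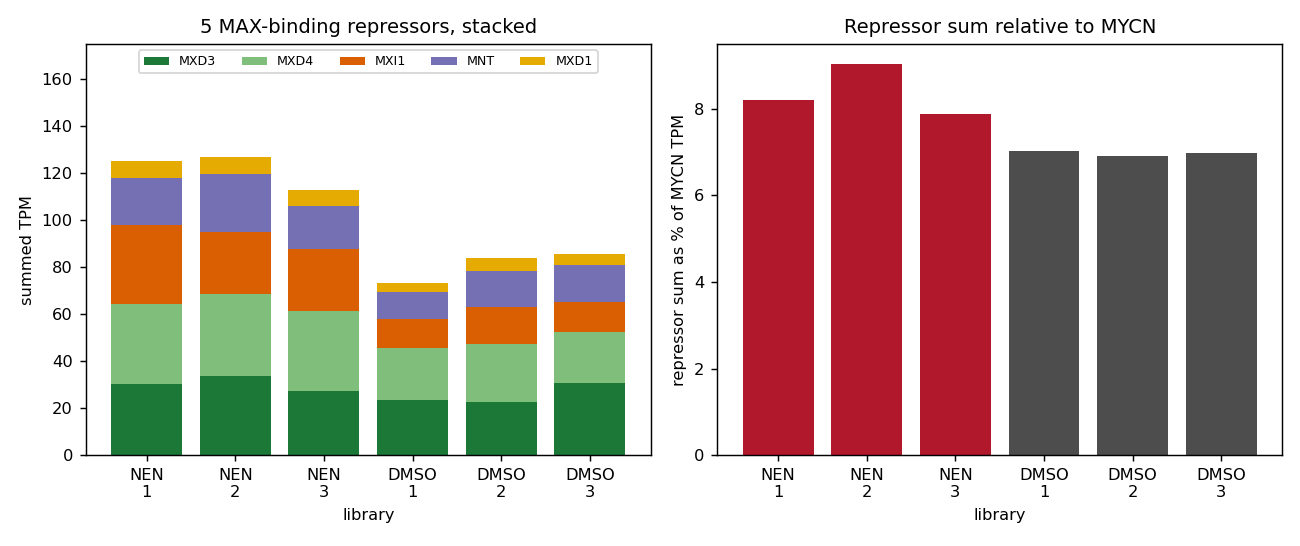
Left, TPM of MXD3, MXD4, MXI1, MNT and MXD1 stacked for each library; right, their sum as a percentage of MYCN TPM in the same library, both axes from 0, NEN libraries in the left 3 columns and DMSO libraries in the right 3. The NEN sums reach 112.8 to 127.0 TPM and the DMSO sums 73.4 to 85.7 TPM, and the right panel shows 7.88% to 9.04% in NEN and 6.91% to 7.03% in DMSO.

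The genes whose pattern over the 6 libraries was nearest to MYCN, by the root mean square difference of log2(TPM + 1) from each gene's own DMSO mean, were PAK4, KAT8, ARMC10 and MLXIP among 7449 tested genes averaging 10 TPM or more, clone-named and noncoding entries left out. Their differences from MYCN were 0.0315 for PAK4, 0.0334 for KAT8, 0.0376 for ARMC10 and 0.0380 for MLXIP on the log2 scale. PAK4 had 56.8 ± 1.63 TPM in NEN and 46.3 ± 4.56 TPM in DMSO, and KAT8 had 37.4 ± 1.21 TPM in NEN and 30.5 ± 3.06 TPM in DMSO (SD, n = 3 each). For MXI1 the nearest were PALM (0.0930), SH2B2 (0.0968), ZNF277 (0.105) and GAB2 (0.105), the last with 38.2 ± 2.68 TPM in NEN and 17.5 ± 0.96 TPM in DMSO. These 8 genes were chosen for their pattern, so their values are descriptions.

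MYCN lies on the short arm of chromosome 2 beside DDX1, an RNA helicase gene, and NBAS, a gene of Golgi-to-ER transport, which are often amplified with it; the files do not give copy numbers. The neighbours moved in opposite directions. DDX1 had 198.9, 198.5 and 201.4 TPM in NEN libraries and 232.9, 258.4 and 236.5 TPM in DMSO libraries, and fell by 0.28 ± 0.06 on the log2 scale (limma adjusted p = 0.00989). NBAS had 35.6, 31.4 and 32.9 TPM in NEN libraries and 22.4, 20.6 and 20.3 TPM in DMSO libraries, and rose by 0.63 ± 0.08 (limma adjusted p = 0.00230). The groups did not overlap for DDX1 or NBAS, and their calls held in each of the 15 alternative settings, the DDX1 value being -0.18 with length and GC correction. FAM49A, further along the chromosome arm, was listed at 0.029, 0.056 and 0.16 TPM in NEN libraries and 0.015, 0 and 0 TPM in DMSO libraries. MYCNOS and MYCNUT, transcripts of the MYCN locus, were not analysed here. MYCNOS runs antisense to MYCN, and how strand was treated is not given in the sources used here.

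Among 14 genes for kinases, ubiquitin ligases and other enzymes that set the lifetime of MYC proteins, 5 were lower in NEN and 0 higher, beside 16.5% lower and 13.5% higher among all genes tested, and the median fold change was -0.10, beside -0.02 for all genes tested. AURKA, the kinase that shields MYCN protein from degradation, fell to 81.8 ± 1.16 TPM in NEN, against 100.2 ± 2.33 TPM in DMSO (-0.29 ± 0.05, limma adjusted p = 0.00684). FBXW7, the ubiquitin ligase subunit that AURKA counters, fell to 9.53 ± 1.19 TPM in NEN, against 13.1 ± 1.04 TPM in DMSO (-0.43 ± 0.12, limma adjusted p = 0.0361). SKP2, another ligase subunit, fell by 0.43 ± 0.07 and USP7, a deubiquitinase of MYCN, by 0.33 ± 0.07, while PPP2CA, a phosphatase subunit, fell by 0.46 ± 0.12. FBXW7 was not called without DMSO replicate 1 (-0.37), DMSO replicate 2 (-0.45), DMSO replicate 3 (-0.46), NEN replicate 1 (-0.36) or NEN replicate 2 (-0.41), or with no filter (-0.43) and length and GC correction (-0.34). PPP2CA was called in no fit that left out DMSO replicate 2 (-0.38), DMSO replicate 3 (-0.39), NEN replicate 1 (-0.51), NEN replicate 2 (-0.41) or NEN replicate 3 (-0.46), nor with no filter (-0.46), plain limma settings (-0.46) or length and GC correction (-0.31), and the list count was 3 without DMSO replicate 2 or 3 or NEN replicate 1 or 2.

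Of 16 coactivators and DNA-bound partners of MYC, 2 rose and 4 fell (median -0.16), where 13.5% of all genes tested rose and 16.5% fell, so that 2 of 16 is near the background. HCFC1, a chromatin adaptor that binds MYC, fell to 41.6 ± 0.30 TPM in NEN, against 54.1 ± 2.45 TPM in DMSO (SD, n = 3 each), and PAF1, of the elongation complex PAF1C, fell by 0.38 ± 0.08. KAT5, an acetyltransferase recruited by MYC, rose by 0.42 ± 0.09 and RUVBL2, an ATPase of the same complex, by 0.24 ± 0.05. KAT5 lost its call without NEN replicate 3 (0.36), where 1 coactivator rose, and RUVBL2 with length and GC correction (0.12). Adjusted p-values from limma for these 4 genes lay between 0.00611 and 0.0156.

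MXD proteins and MNT silence genes through the SIN3-HDAC corepressor. The list for it, which also holds the corepressor NCOR1, had 1 of 16 genes higher and 5 lower (median -0.13). Among all genes tested 13.5% were higher and 16.5% lower. NCOR1 was among the 5. The alternative SIN3 scaffolds moved in opposite directions. SIN3A had 38.4, 29.8 and 26.5 TPM in NEN libraries and 19.7, 19.7 and 20.5 TPM in DMSO libraries, a rise of 0.62 ± 0.13 (limma adjusted p = 0.0130). SIN3B had 22.1, 19.5 and 21.4 TPM in NEN libraries and 31.3, 29.9 and 30.5 TPM in DMSO libraries, a fold change of -0.52 ± 0.08 (limma adjusted p = 0.00386). The groups overlapped for neither scaffold, and NEN replicate 1 was the highest for SIN3A. BRMS1 fell by 0.55 ± 0.08, the histone chaperone RBBP7 by 0.46 ± 0.07 and the corepressor NCOR1 by 0.43 ± 0.08.

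Of 14 genes of the PRC1.6 complex that contains MGA, 1 rose and 3 fell (median -0.20), beside 13.5% that rose and 16.5% that fell among all genes tested. TFDP1, the partner of E2F factors, fell to 91.7 ± 2.42 TPM in NEN, against 157.4 ± 4.27 TPM in DMSO (-0.77 ± 0.05, limma adjusted p = 0.000295). L3MBTL2, a reader subunit of the complex, fell by 0.58 ± 0.11 and E2F6, its DNA-binding E2F, by 0.37 ± 0.09, whereas TFDP2, the paralogue of TFDP1, rose by 0.51 ± 0.13. E2F6 was not called when DMSO replicate 2 (-0.36) or either of NEN replicates 1 (-0.34) and 2 (-0.36) was dropped. TFDP2 was not called, and no gene of the list rose, without DMSO replicate 2 (0.54) or DMSO replicate 3 (0.45), with no filter (0.51) or with plain limma settings (0.51).

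Of 23 tested genes known as induced by MYC or MYCN through E-boxes, 6 rose and 9 fell, beside 13.5% that rose and 16.5% that fell among all genes tested. The list's median was -0.10, and that of all genes tested -0.02. MCM7, of the replicative helicase, fell to 235.0 ± 1.03 TPM in NEN, against 317.9 ± 7.0 TPM in DMSO (-0.43 ± 0.05, limma adjusted p = 0.000993). The transferrin receptor gene TFRC fell by 0.44 ± 0.06, DKC1, a component of telomerase and of small nucleolar particles, by 0.42 ± 0.06 and NME1, a nucleotide kinase, by 0.33 ± 0.05. ODC1, the rate-limiting enzyme of polyamine synthesis and a textbook MYC target, had 290.8 ± 7.07 TPM in NEN and 300.6 ± 25.2 TPM in DMSO (-0.04 ± 0.07, limma adjusted p = 0.656), and its small difference was positive without DMSO replicate 1 (0.02), after quantile normalization (0.03) and after length and GC correction (0.0056). The 6 rises were fewer in several fits: 1 without DMSO replicate 2, 2 with DMSO replicate 3 or either of NEN replicates 1 and 2 dropped, and 0 without NEN replicate 3, against 1 with no filter and 2 with plain limma settings.

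Of 16 tested genes known as repressed by MYC or MYCN, 5 rose and 5 fell (median 0.10), beside 13.5% that rose and 16.5% that fell among all genes tested. NDRG1, a differentiation and stress gene, had 13.0, 15.5 and 18.8 TPM in NEN libraries and 6.35, 4.21 and 4.42 TPM in DMSO libraries, a rise of 1.49 ± 0.19 (limma adjusted p = 0.00176). GADD45B, a stress-response gene, rose by 0.93 ± 0.17 (0.49 with a pseudocount of 5) and DKK3, a secreted protein, by 0.50 ± 0.09. CDKN1A, which encodes the cell-cycle inhibitor p21 and is repressed by MYC through ZBTB17, fell to 45.6 ± 3.85 TPM in NEN, against 65.0 ± 1.63 TPM in DMSO (-0.51 ± 0.08, limma adjusted p = 0.00358). So NDRG1 and CDKN1A, from the same list, lay on opposite sides of 0 with no overlap between groups. The rises numbered 3 without NEN replicate 1 or NEN replicate 3, and the falls numbered 2 without DMSO replicate 2, DMSO replicate 3 or NEN replicate 1, 3 without NEN replicate 3, 2 with no filter and 3 with a minimum of 5 TPM.

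**Figure D4:**
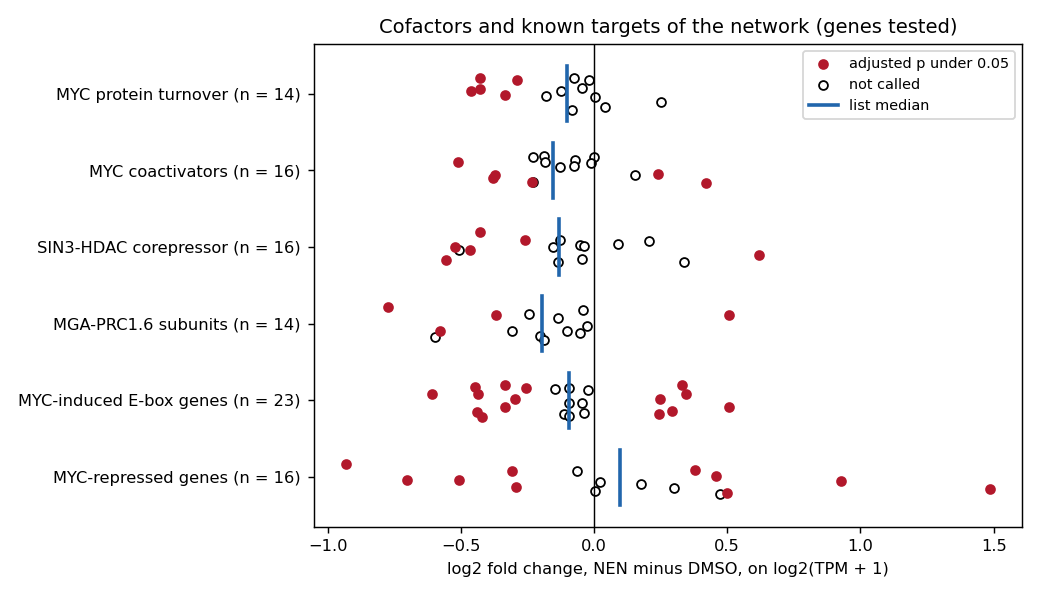
Log2 fold change, NEN minus DMSO of log2(TPM + 1), of each tested gene in 6 lists of cofactors and known targets of the network; filled points have an adjusted p under 0.05, open points do not, and the blue line is the list's median. The medians run between -0.20 for PRC1.6 and 0.10 for MYC-repressed genes, and each list holds genes on both sides of 0.

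The plot of all settings sets the members beside each other. MXI1 and MXD4 kept their calls throughout, MYCN lost its call in 2 of the 15 alternative settings, and the remaining calls (MXD1, MNT and MLX) were each lost in more. The sign of each member was the same in all settings except MXD3 with length and GC correction.

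**Figure D5:**
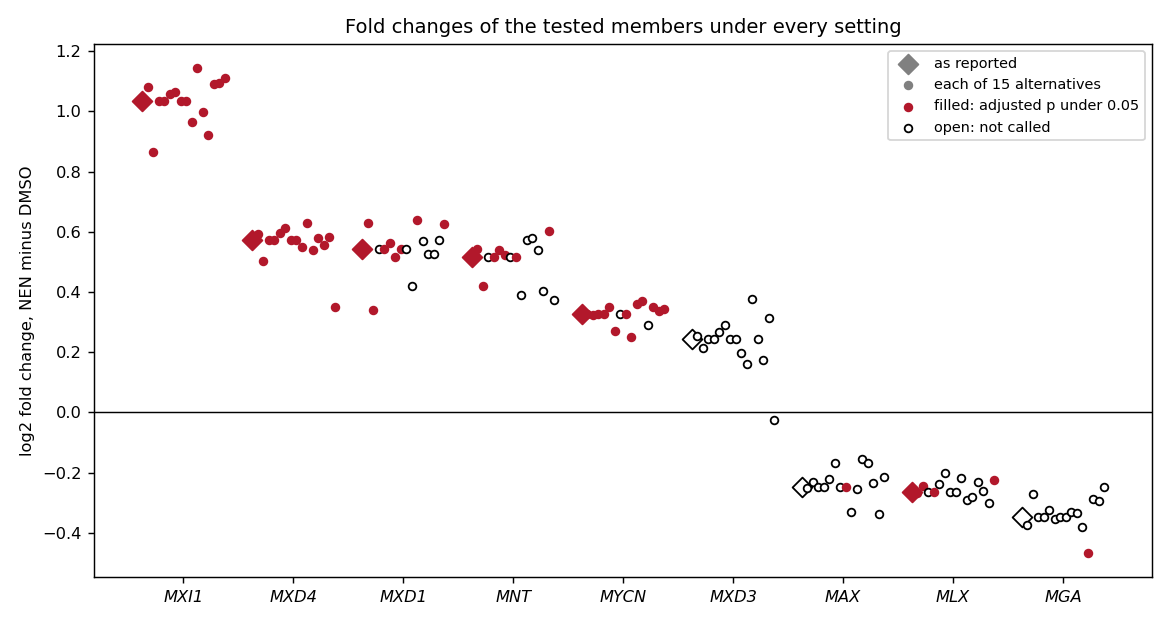
Log2 fold change of the 9 tested members (NEN minus DMSO, vertical axis) as reported (diamonds) and under each of 15 alternative settings (small circles); filled symbols have an adjusted p under 0.05. All symbols of MXI1 and MXD4 are filled and lie above 0.35, while MXD3 has 1 symbol below 0 (-0.02).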

How the data were processed

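The 6 RNA-seq libraries, 3 NEN and 3 DMSO, were grouped by the treatment label. Per the submitters' processing notes, the authors used kallisto and the build hg19; the sources used here give no version or annotation, and the labels name polyA capture or rRNA removal without saying which. Values in the deposited files were taken as TPM, because each library sums to between 929054 and 933500 over its 35130 names; depth is unknown, so no counting intervals are given. The 12576 genes averaging 1 TPM or more were tested as log2(TPM + 1), a pseudocount of 1, with limma 3.58.1 in R 4.3.3 (trend and robust settings, group alone, two-sided, threshold 0.05). The files held 142 of the 144 symbols on the lists.

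The members and the lists were chosen with earlier results of these data known. Some results for withheld items are not reported here. Named genes follow a rule: all members, all genes of the small lists around them, up to 4 called genes per other list with the smallest adjusted p, 7 fixed genes and the 4 nearest patterns for 2 members. Alternatives were other pseudocounts, filters, scalings and settings, a replicate block and leaving out each library, 14 in all; a correction for transcript length and GC content (GENCODE transcripts, loess span 0.3, 12105 genes, 96.3% of those tested) was added after the data were seen. Figures used matplotlib 3.10.9.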

Additional observations from a re-analysis of the deposited data

How the results depend on the processing

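Of 135 values of the 9 tested members under the 15 alternatives, 104 kept their direction and their side of the threshold, 28 lost a call, 2 gained one and 1 turned round; the cause was not tested, except that dropping a library leaves fewer samples. The value that turned round was that of MXD3 with length and GC correction (-0.0242). Without 1 library, genes higher in NEN numbered 1063 (without NEN replicate 1) to 1554 against 1699, and genes lower 1402 to 1914 against 2074; members higher numbered 2 to 4 and members lower 0 to 1. The fold changes then ran between 0.25 and 0.37 for MYCN, -0.34 and -0.15 for MAX, 0.16 and 0.38 for MXD3, 0.42 and 0.64 for MXD1, 0.39 and 0.60 for MNT, -0.30 and -0.22 for MLX, and -0.47 and -0.29 for MGA. Members higher numbered 3 with no filter and 3 with plain limma settings, and members lower 0 with no filter, median-ratio scaling, quantile normalization or plain settings. Calls were lost with no filter for MXD1 (0.54), MNT (0.51) and MLX (-0.26), with plain settings for MYCN (0.33), MNT (0.51) and MLX (-0.26), with median-ratio scaling (-0.24) and quantile normalization (-0.20) for MLX, and with length and GC correction for MNT (0.37).

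Same-numbered libraries did not deviate together (correlations of -0.0278 to 0.0117 over 12576 genes), so the numbers are not taken as pairs. With the replicate block 1328 genes were higher and 1649 lower; MAX was called (-0.25, limma adjusted p = 0.0453), and MXD1 (0.54, limma adjusted p = 0.0625) and MLX (-0.26, limma adjusted p = 0.0736) were not. The block also ended the calls of MYCL, MLXIP, PPP2CA, FBXW7 and E2F6, and left 0 of 2 extended-network genes (MYCL and MLXIP) and 3 of 5 turnover genes.

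Of 478 values of 32 genes outside the network, 433 kept direction and side, 42 lost a call and 3 turned round, all of ODC1 (0.034 after quantile normalization, 0.0231 without DMSO replicate 1 in a range of -0.0814 to 0.0231 without 1 library, 0.0056 with length and GC correction). Counts of lists moved by over 1.5 times in 35 of 240 cases. Their ranges were 0 to 6 E-box genes higher (6 as reported), 2 to 5 repressed genes lower (5), 3 to 7 repressed genes higher (5), 3 to 5 turnover genes lower (5), 0 to 2 extended-network genes higher (2), 1 to 2 coactivators higher (2) and 0 to 1 PRC1.6 genes higher (1). The fold change of MXD1 was 0.63 with a pseudocount of 0.1 and 0.34 with 5.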
